A study of Mus musculus with 6 samples.

Results

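The genes described here serve the endoplasmic reticulum (ER), the compartment in which a cell folds the proteins that it secretes or places in membranes. They are 33 genes of protein translocation, folding, ER-associated degradation and the unfolded protein response, taken from a fixed list of symbols that was drawn up with earlier results of these data known. Probe sets annotated to a single gene measured 32 of them, with 76 probe sets, among 12393 genes and 22626 probe sets tested. Sec61g shares its probe set with other genes in the platform annotation and is not reported.

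RNA came from brown adipose tissue, the heat-producing fat, of mice aged 3.5 months, of a mixed background of C57BL6 and the 129 strain, after 3 months on high fat diet. Control mice were YY1flox/flox, and YY1bKO mice were YY1flox/flox; Ucp1Cre, so both groups carried the floxed Yy1 alleles and ate the same diet. Cre was expressed from the promoter of Ucp1, the uncoupling protein of brown adipocytes, so the deletion was aimed at brown adipocytes, and no group carried Cre with intact alleles. Each group had 3 arrays, and the labels leave unsaid whether each came from its own animal. The p-values therefore rest on the spread among these samples alone, and that spread may be technical. The comparison asks how the transcripts of these genes differ when brown adipocytes lose the transcription factor YY1 under this diet.

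As background, unfolded protein in the ER is sensed by IRE1 (gene Ern1), ATF6 and PERK. IRE1 splices the Xbp1 transcript, ATF6 is cut and its free part moves to the nucleus, and both XBP1 and ATF6 raise genes of folding, translocation and degradation. PERK slows translation and favours that of ATF4. Many of the responding promoters hold an ER stress element, in which the CCAAT end is bound by NF-Y and the CCACG end by ATF6 or XBP1. In cultured cells YY1 has been described as a partner of ATF6 at the promoter of Hspa5, which encodes the chaperone BiP.

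Yy1 was lower in YY1bKO tissue: its brightest probe set fell from 9.82 ± 0.18 (log2 intensity, SD, n = 3) in control to 8.39 ± 0.02 (SD, n = 3), or 2.69-fold (limma adjusted p = 0.000854). The labels do not state the deleted part of the gene, so this value is a lower transcript level and not a map of the deletion. Of the variance between arrays 48.6% lay on a component that separated the groups, and 36% on a further one that set control replicate 2 apart. That array also had the highest summed skeletal muscle signal: the log2 of the summed intensity of 20 muscle markers was 17.67 there, 15.20 and 15.48 in the other controls, and 16.31 to 16.76 in YY1bKO. Of these 20 markers 4 were called higher and 0 lower: Myh7, Tnnc1, Tnnt1 and Tnni1, at log2 fold changes of 1.54 to 1.72. In these 4, control replicate 2 was the lowest array, unlike in the sum (Myh7 at 9.44, 9.06 and 9.71 in control). The other markers lay at -0.03 to 0.56 with overlapping groups. Without control replicate 2 the count was 19 higher. The 12 endothelial markers summed to 12.39 to 12.71 in control and to 11.94 to 12.07 in YY1bKO, and 5 were called lower and 0 higher, with Cldn5 at a log2 fold change of -1.19. Of 8 measured markers of plasma and B cells, which secrete heavily, 7 were dim, and limma called 0, 0 also at an unadjusted p under 0.05. Their summed log2 intensity was 9.31 to 9.73 in control and 9.62 to 10.22 in YY1bKO. The marker that was not dim, Ighm, the heavy chain of immunoglobulin M, was at 9.37, 8.80 and 9.08 in control and 9.91, 9.19 and 9.56 in YY1bKO, with overlapping groups (log2 fold change 0.47 ± 0.22, SE, limma adjusted p = 0.189). Of the other marker lists, 1 of 13 macrophage genes was called lower and 0 higher, limma called none of 9 fibroblast and 7 mast cell genes (0 and 2 at an unadjusted p under 0.05), and of 8 white adipocyte genes 1 was called higher and 1 lower. Of 14 brown adipocyte genes 3 were called higher, Elovl3, Ppargc1a and Zic1 (log2 fold changes 1.14, 1.09 and 0.9), and 1 lower, Letmd1 (-0.73). Ucp1 was not called, at 13.92 ± 0.06 on the log2 scale in control and 13.78 ± 0.08 (SD, n = 3) in YY1bKO. The part of muscle, endothelial and plasma or B cells in the results on ER genes was not tested. In whole tissue, fewer cells of a type and less RNA per cell cannot be told apart.

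In all, 8 genes of translocation, degradation, oxidation and folding were higher in YY1bKO tissue, and the stress sensors and Hspa5 were not among the genes called. Of the 32 measured genes, 8 were called higher, or 25.0%, against 10.2% of all genes tested. None was called lower, against 8.09% of all genes, and at an unadjusted p under 0.05 limma gave 11 higher and 0 lower. The 8 called genes were Derl1, Ero1a, Sec61b, Edem1, Hsp90b1, Sec61a1, Ssr2 and Canx, with log2 fold changes of 0.29 to 1.01. A call is a limma adjusted p under 0.05 after Benjamini-Hochberg adjustment over all 12393 genes, and each gene is read from the probe set with the highest mean over the 6 arrays. The median log2 fold change was 0.12 over the 32 genes and 0.04 over all genes. The members were also brighter, with a median control level of 9.57 (log2 intensity) against 6.93 over all genes. Without dim probe sets 8 of 31 members were called higher and 0 lower, against 16.2% and 14.1% of all genes left. The part of brightness in the gap between members and all genes was not tested.

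In 11 of the 32 genes all YY1bKO values lay above all control values, against 22.8% of all genes. In 1, Sec62, they all lay below, against 15.7% of all genes. The groups overlapped in the other 20. The calls differed in how far they rested on single arrays: Derl1 and Sec61b remained called under all 15 alternative settings, which include the removal of each array in turn, and the other 6 did not.

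**Figure D1:**
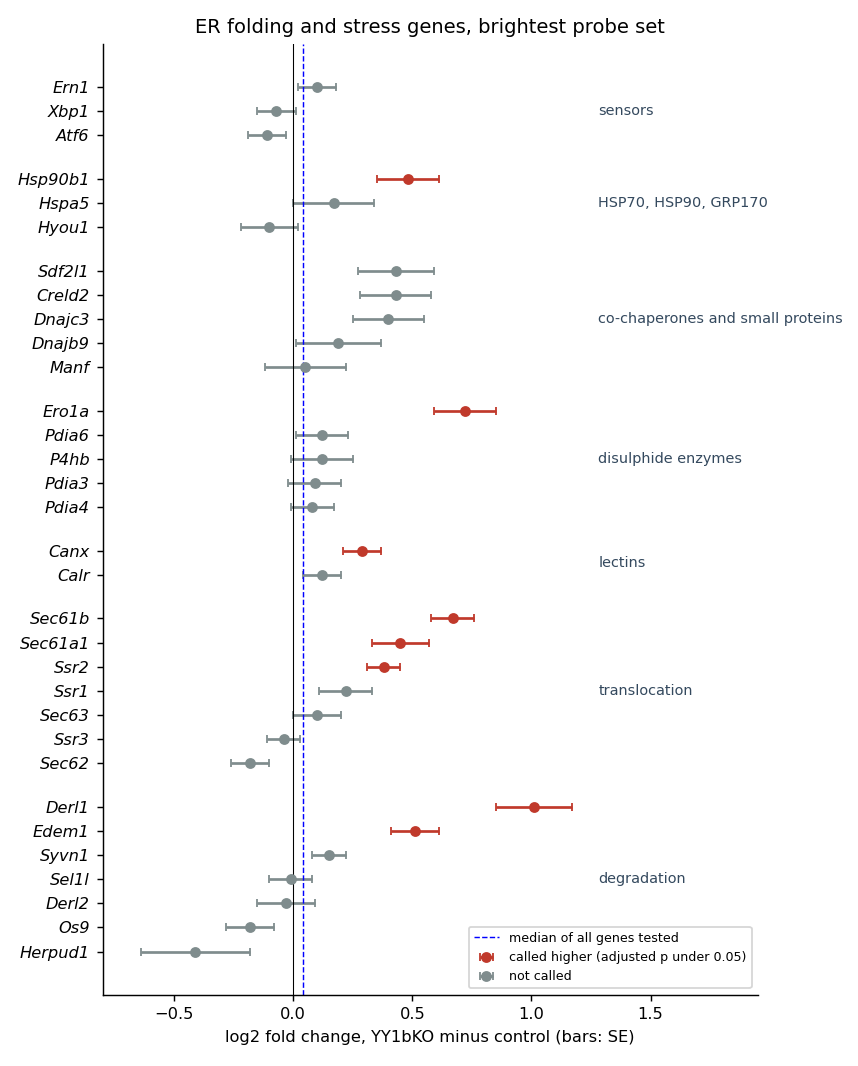
Log2 fold change of each measured gene, YY1bKO minus control, with its standard error, grouped by role (3 arrays a group). Red points are the 8 genes called higher, grey points were not called, and the dashed line marks the median of all genes tested at 0.04. Called genes sit in 5 of the 7 roles and in neither the sensors nor the co-chaperones.

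Promoter sequence was read for the members because the ER stress element is the best known shared feature of this gene group. RefSeq windows on GRCm38.p6, from 250 bases before to 50 bases after the annotated start, were at hand for 27 of the 33 genes (28 windows, Derl2 having 2). Manf, Sec61a1, Ssr2, Derl1, Atf6 and Hyou1 were without one here. The element searched for was CCAAT, any 9 bases, then CCACG, on both strands. Only exact matches were counted, so a variant of the element would be missed. It stood in 8 of the 28 member windows, or 28.6%, against 39 of 32851 windows of all genes, or 0.119%. Among windows of tested genes it stood in 18 of 12566, or 0.143%. The backgrounds here and below include the member windows. Because the element is known from promoters of this gene group, an excess among members was built into the search. It is no result of the arrays.

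These are the elements of the 8 members, shown 5′ to 3′ along the strand of the element with its fixed ends in capitals, since they are what the promoters share.
Hspa5: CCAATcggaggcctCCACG
Hsp90b1, first: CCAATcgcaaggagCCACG
Hsp90b1, second: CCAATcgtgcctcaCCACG
Canx: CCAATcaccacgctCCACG
Calr: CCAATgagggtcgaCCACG
Dnajc3: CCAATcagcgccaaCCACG
Creld2: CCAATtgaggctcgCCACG
Pdia6: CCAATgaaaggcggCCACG
Syvn1: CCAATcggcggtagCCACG
The 5 bases at each end are alike by construction of the search, and the bases between differ from gene to gene. The element of Hspa5 lay at chr2:34772025-34772043, from 65 to 47 bases before the start. Hsp90b1 held its pair from 212 to 194 and from 107 to 89 bases before the start, on opposite strands. That of Syvn1 was the nearest to its start, at 44 to 26 bases, and that of Calr, at 162 to 144 bases, was the farthest among the members with 1 element.

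Herpud1, which helps to assemble the degradation complex in the ER membrane, held the shorter form, ATTGG, 1 base, then CCACG, which occurred in 1 of 28 member windows (3.57%) and in 12 of all windows (0.0365%).
Herpud1: ATTGGgCCACG
It lay 52 to 42 bases before the start, at chr8:94386377-94386387. The other motifs were also searched on both strands. The single box CCACG, which the full and short elements also contain, was found in 22 member windows (78.6%) against 32.8% of all windows and 42.8% of windows of tested genes. The single box CCAAT was in 21 (75%) against 37.4% and, among tested genes, 37.1%. TGACGTGG, a site described for ATF6 and XBP1 that also contains CCACG on its other strand, was in 0 of 28 against 0.676% and, among tested genes, 0.859%. The core letters of the YY1 site, ATGGC, were in 11 member windows (39.3%) against 40.5% of all windows and 37.9% of windows of tested genes. Such matches describe letters in these windows and are no evidence of binding.

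Whole windows of 6 members follow in gene orientation, with the full or short element in capitals, chosen because they set 2 called genes that hold the element (Hsp90b1, Canx) beside 2 that hold it and were not called (Hspa5, Creld2), the member with the short form (Herpud1) and a called gene with neither (Sec61b).
Hspa5, chr2:34771840-34772139, plus strand: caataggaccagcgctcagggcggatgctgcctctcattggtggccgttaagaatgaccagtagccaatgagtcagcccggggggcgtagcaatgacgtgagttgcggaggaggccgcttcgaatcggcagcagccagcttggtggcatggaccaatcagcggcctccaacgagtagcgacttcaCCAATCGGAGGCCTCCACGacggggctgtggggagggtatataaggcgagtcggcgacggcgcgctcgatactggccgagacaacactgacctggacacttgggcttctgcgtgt
Hsp90b1, chr10:86705395-86705694, minus strand: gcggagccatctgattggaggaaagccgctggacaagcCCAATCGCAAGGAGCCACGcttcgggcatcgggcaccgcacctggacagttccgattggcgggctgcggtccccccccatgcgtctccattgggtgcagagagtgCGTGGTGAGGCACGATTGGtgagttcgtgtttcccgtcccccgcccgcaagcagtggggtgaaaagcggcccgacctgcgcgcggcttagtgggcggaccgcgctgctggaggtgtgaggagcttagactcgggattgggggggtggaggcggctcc
Canx, chr11:50325624-50325923, minus strand: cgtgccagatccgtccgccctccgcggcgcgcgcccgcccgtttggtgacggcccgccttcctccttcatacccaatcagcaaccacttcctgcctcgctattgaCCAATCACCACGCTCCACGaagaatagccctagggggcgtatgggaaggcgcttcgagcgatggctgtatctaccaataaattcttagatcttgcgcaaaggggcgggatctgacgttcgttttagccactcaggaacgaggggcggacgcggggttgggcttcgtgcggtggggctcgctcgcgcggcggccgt
Creld2, chr15:88819396-88819695, plus strand: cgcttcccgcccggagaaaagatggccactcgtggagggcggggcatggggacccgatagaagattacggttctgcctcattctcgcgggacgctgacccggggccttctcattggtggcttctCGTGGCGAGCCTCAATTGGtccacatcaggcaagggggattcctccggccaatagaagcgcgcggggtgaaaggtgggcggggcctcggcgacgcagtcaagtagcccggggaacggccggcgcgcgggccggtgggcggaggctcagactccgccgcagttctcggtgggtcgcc
Herpud1, chr8:94386179-94386478, plus strand: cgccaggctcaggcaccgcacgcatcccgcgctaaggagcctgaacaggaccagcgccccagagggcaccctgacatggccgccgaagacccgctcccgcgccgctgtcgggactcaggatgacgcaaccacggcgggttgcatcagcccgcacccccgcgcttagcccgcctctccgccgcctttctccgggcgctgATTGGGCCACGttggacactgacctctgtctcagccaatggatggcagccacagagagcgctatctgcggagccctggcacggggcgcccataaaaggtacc
Sec61b, chr4:47474411-47474710, plus strand: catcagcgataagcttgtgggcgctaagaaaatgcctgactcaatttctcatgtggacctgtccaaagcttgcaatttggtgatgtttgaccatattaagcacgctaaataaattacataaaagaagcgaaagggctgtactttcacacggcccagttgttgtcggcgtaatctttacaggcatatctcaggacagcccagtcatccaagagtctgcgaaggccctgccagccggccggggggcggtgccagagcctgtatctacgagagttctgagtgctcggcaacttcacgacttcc
The Sec61b window is in lower case throughout because neither form occurs in it, and CCACG does not occur in it either. Of the 8 members with the full element 2 were called higher, and their log2 fold changes ran from 0.12 to 0.48 with a median of 0.23. Of 17 measured members with a window and neither form 3 were called higher, Ero1a, Sec61b and Edem1, with a range of -0.18 to 0.72 and a median of 0.10. The 6 members without a window here included 3 called genes, and their median was 0.22. Over all genes tested 10.2% were called higher, and the median was 0.04. Called genes thus stood in each of these 3 promoter groups, and no difference between the groups was tested.

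On the member list none of the stress sensors or their factors, Ern1, Xbp1 and Atf6, was called. Ern1, which encodes the sensor kinase and endonuclease IRE1, had log2 intensities of 5.03, 5.07 and 5.21 in control and 5.20, 5.15 and 5.28 in YY1bKO, below the median of all probe sets and overlapping between groups (log2 fold change 0.10 ± 0.08, SE, limma adjusted p = 0.446). Xbp1 was at 11.13, 11.25 and 11.05 in control and at 11.08, 11.09 and 11.06 in YY1bKO, a log2 fold change of -0.07 ± 0.08 (SE, limma adjusted p = 0.609). Its 4 probe sets gave log2 fold changes of -0.28 to -0.03, and none was called. The spliced form of Xbp1 was not analysed here. Atf6 was at 8.93, 8.82 and 8.72 against 8.69, 8.72 and 8.74 (log2 fold change -0.11 ± 0.08, adjusted p = 0.411).

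Among the large chaperones, Hsp90b1 rose and Hspa5 and Hyou1 were not called. Hsp90b1, which encodes GRP94, the HSP90 of the ER, had log2 intensities of 11.19, 10.83 and 10.84 in control and 11.27, 11.49 and 11.54 in YY1bKO. The groups did not overlap, but the highest control and the lowest YY1bKO array lay close together. The rise was 0.48 ± 0.13 (log2, SE), or 1.40-fold, at a limma adjusted p of 0.0474. Its other probe set gave 0.64 (adjusted p = 0.0243 over all probe sets). Hsp90b1 missed the threshold once control replicate 2 or 3 was removed (adjusted p = 0.0678 and 0.115), and likewise once YY1bKO replicate 1, 2 or 3 was (0.0683, 0.148 and 0.152).

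Hspa5, whose product BiP is the HSP70 of the ER and the usual readout of the response, was at 12.16, 11.75 and 11.87 in control and 11.84, 12.08 and 12.37 in YY1bKO. These groups overlapped, with control replicate 1 above 2 of the YY1bKO arrays, and the log2 fold change of 0.17 ± 0.17 (SE) was not called (adjusted p = 0.524). Its other probe set gave 0.19. Hyou1, the GRP170 chaperone that also exchanges the nucleotide of BiP, was at 8.71, 8.46 and 8.64 in control and 8.32, 8.64 and 8.54 in YY1bKO (log2 fold change -0.10 ± 0.12, adjusted p = 0.595). The other probe sets of Hyou1, both dim, gave -0.41, with all YY1bKO values below control (adjusted p = 0.0594 over all probe sets), and 0.02.

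**Figure D2:**
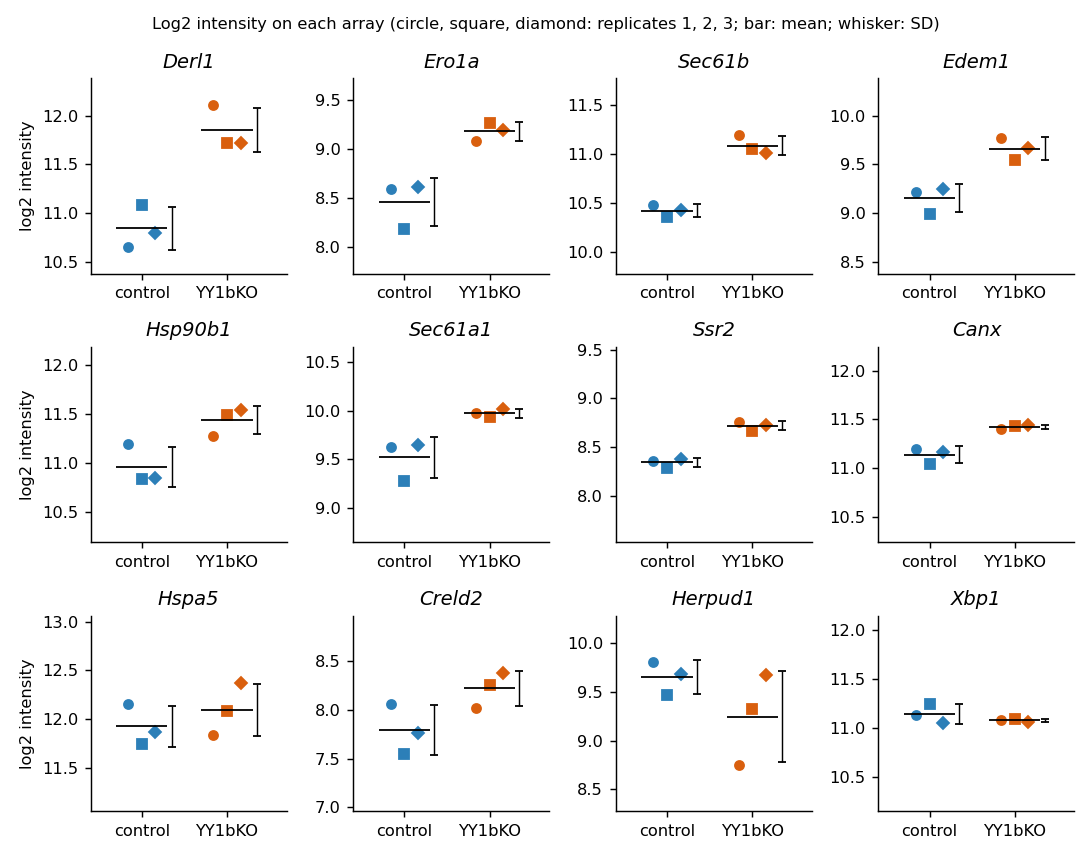
Log2 intensity on each array for the 8 called genes and for Hspa5, Creld2, Herpud1 and Xbp1 (blue, control; orange, YY1bKO; circle, square and diamond, replicates 1, 2 and 3; horizontal bar, mean; whisker, SD). Each panel spans 2 log2 units. In the 8 called genes every YY1bKO point lies above every control point, whereas Hspa5, Creld2, Herpud1 and Xbp1 overlap between groups.

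The co-chaperones and small ER proteins had the highest median of any role, a log2 fold change of 0.40, and none of the 5 was called. Sdf2l1, a partner of ER DnaJ proteins, was at 7.56, 7.18 and 7.12 in control and 7.47, 7.78 and 7.91 in YY1bKO (log2 fold change 0.43 ± 0.16, limma adjusted p = 0.118). Creld2, a small secreted ER protein, was at 8.06, 7.55 and 7.76 against 8.02, 8.26 and 8.38 (0.43 ± 0.15, adjusted p = 0.108). In both, control replicate 1 exceeded YY1bKO replicate 1, so the groups overlapped by that single pair.

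Dnajc3, which encodes a DnaJ partner of BiP and inhibitor of PERK, was at 9.85, 9.33 and 9.70 in control and 10.03, 9.89 and 10.15 in YY1bKO, where the groups did not overlap. Its log2 fold change of 0.40 ± 0.15 missed the threshold (limma adjusted p = 0.117), and its other 4 probe sets gave -0.16 to 0.04. With the muscle score as a covariate Dnajc3 and Creld2 were called, each at a log2 fold change of 0.53 (adjusted p = 0.00745 and 0.0288). Dnajb9, the DnaJ protein that holds IRE1 inactive with BiP, was at 10.52, 10.10 and 10.60 against 10.34, 10.63 and 10.83 (log2 fold change 0.19 ± 0.18, adjusted p = 0.502). Manf, a secreted ER stress protein, was at 9.99, 9.70 and 9.61 against 9.50, 9.88 and 10.08 (0.05 ± 0.17, adjusted p = 0.867).

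Of the disulphide enzymes the oxidase rose and the 4 isomerases were not called. Ero1a, the oxidase that re-oxidises protein disulphide isomerase, had log2 intensities of 8.59, 8.18 and 8.61 in control and 9.08, 9.27 and 9.20 in YY1bKO. The rise was 0.72 ± 0.13 (log2, SE), or 1.65-fold (limma adjusted p = 0.0144). In its other probe sets the groups also did not overlap, at 0.70 and 0.60, and neither was called over all probe sets (adjusted p = 0.0643 and 0.0506). Removing YY1bKO replicate 2 or 3 ended the call, at 0.68 (adjusted p = 0.0626) and 0.71 (adjusted p = 0.0585).

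The isomerases that make and shuffle the bonds lay between log2 fold changes of 0.08 and 0.12. P4hb, the founding protein disulphide isomerase, was at 10.13, 10.38 and 9.94 in control and 10.33, 10.15 and 10.33 in YY1bKO (0.12 ± 0.13, limma adjusted p = 0.566). Pdia3, which works with the lectin chaperones, was at 10.12, 9.75 and 9.95 against 10.02, 10.03 and 10.04 (0.09 ± 0.11, adjusted p = 0.623). Pdia4 was at 8.38, 8.14 and 8.13 against 8.28, 8.26 and 8.36 (0.08 ± 0.09, adjusted p = 0.593), and Pdia6 at 9.42, 9.23 and 9.37 against 9.34, 9.40 and 9.64 (0.12 ± 0.11, adjusted p = 0.484). All 4 overlapped between groups.

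The lectin chaperones hold glycoproteins while they fold. Canx, the membrane lectin calnexin, had log2 intensities of 11.20, 11.04 and 11.17 in control and 11.40, 11.43 and 11.44 in YY1bKO. This was a small rise with little spread, a log2 fold change of 0.29 ± 0.08 (SE) or 1.22-fold (limma adjusted p = 0.0451). The groups did not overlap in any of its 3 probe sets, and none was called over all probe sets (0.22 to 0.30, adjusted p = 0.0512 to 0.133). Leaving out any 1 of the 6 arrays ended the call, with log2 fold changes of 0.24 to 0.32 and adjusted p of 0.0608 to 0.137. Calr, the soluble lectin calreticulin, was at 11.43, 11.27 and 11.32 against 11.38, 11.52 and 11.46 and was not called (0.12 ± 0.08, adjusted p = 0.385).

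Translocation held the most calls of any role, 3 of 7 measured genes, where 10.2% of all genes were called higher. The roles held 2 to 7 measured genes each, and the difference between roles was not tested. Sec61b, the beta subunit of the channel through which nascent chains enter the ER, had log2 intensities of 10.48, 10.35 and 10.43 in control and 11.20, 11.05 and 11.01 in YY1bKO. The gap between the groups exceeded the range within either, and the rise was 0.67 ± 0.09 (log2, SE), or 1.59-fold (limma adjusted p = 0.00471). Over the 15 alternatives it stayed between 0.61 and 0.70 with adjusted p of at most 0.024. Sec61b has 1 probe set of its own.

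Sec61a1, the pore-forming subunit, was at 9.63, 9.28 and 9.65 in control and 9.97, 9.93 and 10.02 in YY1bKO (log2 fold change 0.45 ± 0.12, 1.37-fold, limma adjusted p = 0.0416). Of its 6 probe sets 2 were called higher, this one and a dim one at 0.47, and the others gave 0.02 to 0.40. Sec61a1 was not called once control replicate 1 or 3 was removed (adjusted p = 0.0713 and 0.0509), nor once YY1bKO replicate 1, 2 or 3 was (0.119, 0.109 and 0.133). Ssr2, a subunit of the translocon-associated complex, was at 8.36, 8.29 and 8.38 against 8.76, 8.67 and 8.73 (0.38 ± 0.07, 1.30-fold, adjusted p = 0.0157). Its arrays spanned 0.08 log2 units in each group, yet Ssr2 was not called once control replicate 1 (adjusted p = 0.0501) or any YY1bKO array was removed (0.0664, 0.0511 and 0.0643 for replicates 1, 2 and 3).

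The other genes of this role were not called. Ssr1, another subunit of that complex, was at 9.99, 9.68 and 9.91 in control and 10.18, 10.05 and 10.00 in YY1bKO, where the groups did not overlap (log2 fold change 0.22 ± 0.11, limma adjusted p = 0.222). Ssr3, also of that complex, was at 10.69, 10.74 and 10.66 against 10.67, 10.64 and 10.66 (-0.04 ± 0.07, adjusted p = 0.749). So of the 3 subunits measured Ssr2 was called, and the difference between subunits was not tested. Sec62, an accessory protein for entry after translation, was the member with all YY1bKO values below control, at 10.51, 10.39 and 10.56 against 10.31, 10.29 and 10.32 (-0.18 ± 0.08, adjusted p = 0.162). Its other probe sets gave -0.49 (adjusted p = 0.0635 over all probe sets), -0.18 and -0.11, and none was called. Its partner Sec63 was at 8.60, 8.31 and 8.50 against 8.63, 8.58 and 8.50 (0.10 ± 0.10, adjusted p = 0.536), and another of its probe sets was called higher at 0.61 (adjusted p = 0.0221).

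The degradation genes held both the largest positive and the largest negative difference of the list. Derl1, a membrane protein of the channel that moves misfolded proteins back to the cytosol, had log2 intensities of 10.65, 11.08 and 10.80 in control and 12.11, 11.72 and 11.72 in YY1bKO. This rise was 1.01 ± 0.16 (log2, SE), or 2.01-fold (limma adjusted p = 0.00814). All 4 of its probe sets were called higher, at 0.65 to 1.06. Over the 15 alternatives the value stayed between 0.86 and 1.13 with adjusted p of at most 0.0368. The related Derl2 was at 9.52, 9.16 and 9.53 against 9.41, 9.36 and 9.36, with overlapping groups (-0.03 ± 0.12, adjusted p = 0.906).

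Edem1, which hands misfolded glycoproteins to degradation, was at 9.22, 8.99 and 9.25 in control and 9.77, 9.54 and 9.67 in YY1bKO (log2 fold change 0.51 ± 0.10, 1.42-fold, limma adjusted p = 0.0198). Its 2 probe sets disagreed, the other giving -0.31 (adjusted p = 0.275), and the mean of both gave 0.099 (adjusted p = 0.649), so the rise of Edem1 rests on the brighter probe set. Removing control replicate 1 (0.54, adjusted p = 0.0519), or YY1bKO replicate 1 or 3 (0.45 and 0.50, adjusted p = 0.0772 and 0.0747), also ended the call.

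Herpud1 was at 9.81, 9.47 and 9.68 in control and 8.75, 9.32 and 9.67 in YY1bKO. The YY1bKO arrays spanned 0.92 log2 units, the widest range of any member in either group, with the lowest far under control and the highest inside it. The log2 fold change of -0.41 ± 0.23 (SE) was not called (limma adjusted p = 0.276), and its other probe set gave -0.33. Syvn1, the ubiquitin ligase Hrd1, was at 7.0, 7.03 and 6.93 against 7.15, 7.19 and 7.08, where the groups did not overlap (0.15 ± 0.07, adjusted p = 0.213). Sel1l, its adaptor, was at 7.39, 7.30 and 7.36 against 7.34, 7.23 and 7.46 (-0.01 ± 0.09, adjusted p = 0.972). Os9, a lectin that delivers substrates to it, was at 7.99, 7.86 and 8.15 against 7.78, 7.80 and 7.89 (-0.18 ± 0.10, adjusted p = 0.263).

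Read by probe set instead of by gene, 13 of the 76 were called higher, or 17.1%, against 8.83% of all probe sets, and 2 were called lower, or 2.6%, against 7.16%. Both lower ones were of Sel1l, at log2 fold changes of -0.40 (limma adjusted p = 0.031) and -0.51 (adjusted p = 0.0323), while its brightest gave -0.01 and its remaining one gave 0.26. The one at -0.40 had a mean of 7.52 in control and 7.12 in YY1bKO, and the brightest over all arrays 7.35 and 7.34. Sel1l was thus read by gene from a probe set that was not its brightest in control tissue. Of the 32 genes, 11 have 1 probe set and 21 have several, up to 6. Derl1 and Hsp90b1 were called higher in each of theirs, whereas those of Edem1, Sel1l and Dnajc3, among others, differed in sign. Which transcript ends or exons the probe sets read was not analysed here. Once dim probe sets were removed, 15 of the 60 left were called higher, or 25.0%, against 15.4% of all probe sets left. Those called lower were then 3.33%, against 13.8%.

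**Figure D3:**
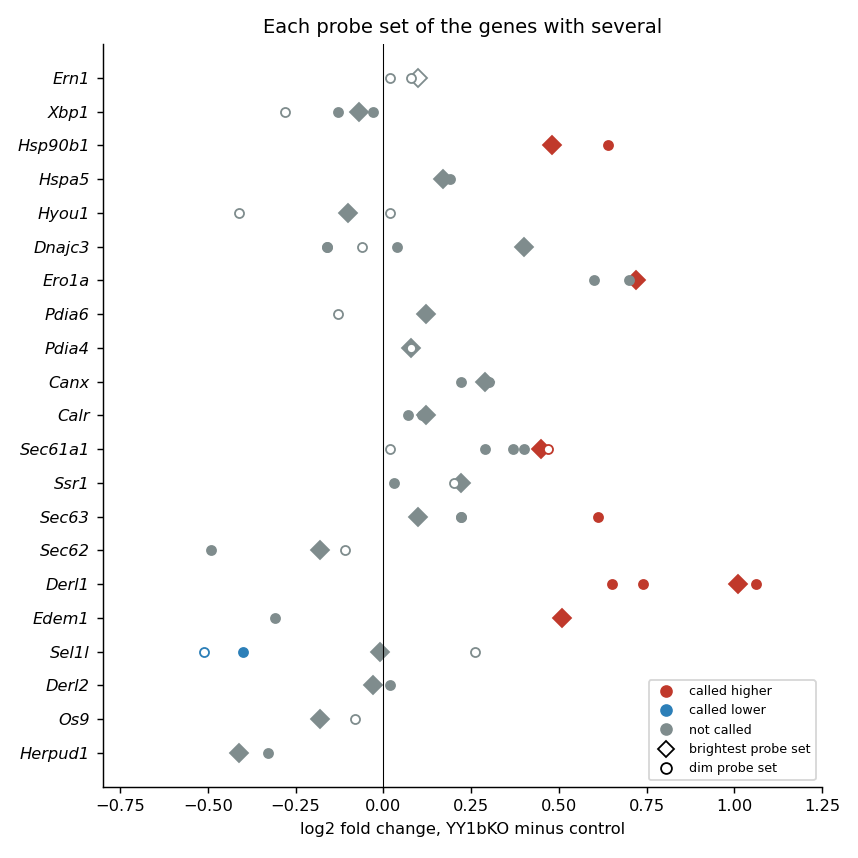
Log2 fold change, YY1bKO minus control, of each probe set of the 21 genes with several. Diamonds mark the brightest probe set of a gene, open symbols the dim ones, red those called higher and blue those called lower over all probe sets. All 4 of Derl1 lie between 0.65 and 1.06, and the 2 blue points belong to Sel1l.

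The order of the arrays within a group was counted over the members and over all genes. Neither order given below was planned, and both were picked with the values known, so the shares are a description and no test. YY1bKO replicate 1 was the lowest and YY1bKO replicate 3 the highest array of its group in 12 of 32 members, or 37.5%, against 17.6% of all genes. These 12 were Hspa5, Hsp90b1, Dnajb9, Sdf2l1, Herpud1, Creld2, Manf, Pdia3, Pdia6, Canx, Os9 and Atf6. Within YY1bKO the range over these 12 ran from 0.02 log2 units for Pdia3 to 0.92 for Herpud1. It was 0.53 for Hspa5 and 0.57 for Manf, but 0.04 for Canx, 0.05 for Atf6 and 0.11 for Os9. Outside the 12, it was 0.19 for Sec61b and 0.08 for Ssr2. Control replicate 2, the array with the highest muscle signal, was the lowest control in 22 of the 32 members, or 68.8%, against 43.8% of all genes. Without that array 6 members were called higher in place of 8, and 0 lower, while over all genes the share called rose from 10.2% to 13.4% higher and from 8.09% to 11.6% lower.

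**Figure D4:**
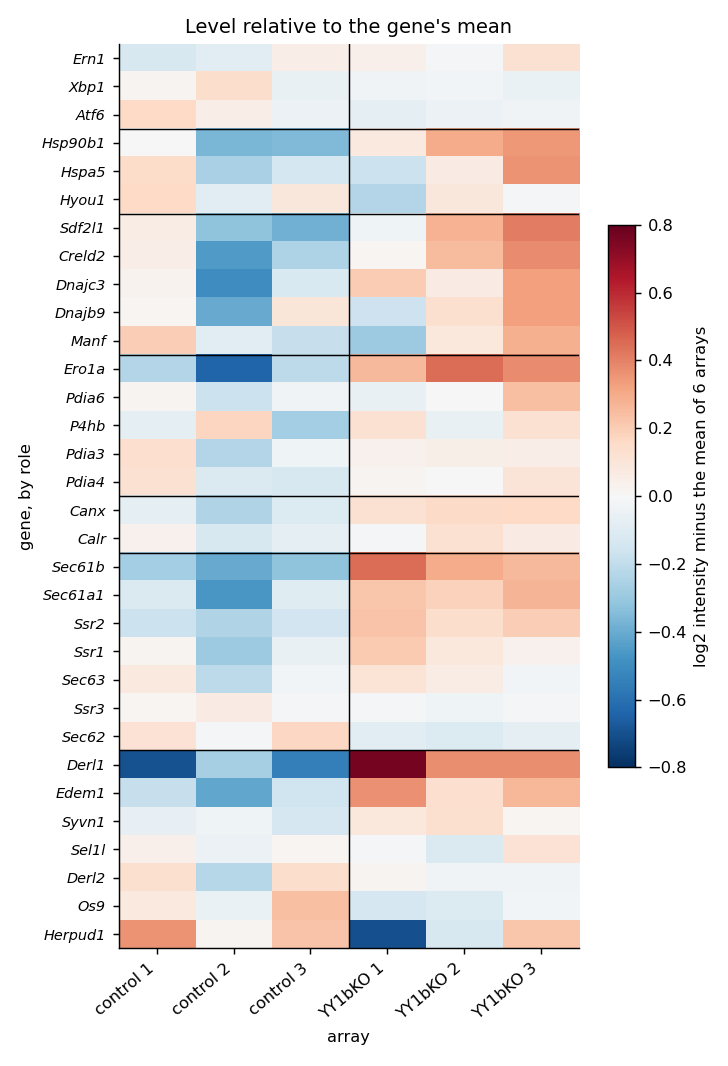
Log2 intensity of each measured gene on each array, minus the mean of its 6 arrays, with genes grouped by role and separated by lines. Derl1, Ero1a, Sec61b and Edem1 are lower in all 3 control columns and higher in all 3 YY1bKO columns. Hspa5, Manf and Herpud1 are lowest in YY1bKO replicate 1 and highest in YY1bKO replicate 3 among the YY1bKO arrays.

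For context within the same route, 7 further lists of ER genes that hold none of the members gave 180 measured genes, of which 37 were called higher, or 20.6%, and 9 lower, or 5.0%, with a median log2 fold change of 0.12. Over all genes the shares were 10.2% and 8.09% and the median was 0.04. The counts ran from 12 to 50 higher and from 5 to 18 lower over the alternatives, while over all genes the share called higher ran from 4.41% to 16.2% and the share called lower from 3.76% to 14.2%. They were 19 and 6 after removal of control replicate 1, and 42 and 16 after that of control replicate 2. After removal of YY1bKO replicate 1, 2 or 3 they were 12 and 5, 13 and 6, and 13 and 6. Without dim probe sets 40 of the 163 genes left were higher and 12 lower, where the shares over all genes were 16.2% and 14.1%.

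Of the other sensors and transcription factors of the response, 4 of 18 were called higher (22.2%) and 1 lower (5.56%), with a median of 0.16. The higher ones were Trib3, Ddit3 and Ppp1r15a, known as targets of ATF4 or of the factors it induces, and the RNA ligase gene Rtcb, whose product joins the cut ends of Xbp1. Trib3, a pseudokinase, had log2 intensities of 7.68, 7.0 and 7.18 in control and 8.32, 9.15 and 9.90 in YY1bKO, a log2 fold change of 1.84 ± 0.39 (SE) or 3.57-fold (limma adjusted p = 0.0222). The call was lost under 3 alternatives, among them the removal of control replicate 3 or YY1bKO replicate 2, with adjusted p of at most 0.0802. Ddit3, the factor CHOP, was at 1.05 ± 0.24 (adjusted p = 0.0264) and Ppp1r15a, the phosphatase subunit GADD34, at 0.51 ± 0.09 (adjusted p = 0.0123), lost under 4 and 2 alternatives. Rtcb was at 0.42 (adjusted p = 0.0185), with 0.22 in the mean over its probe sets, and lost the call under 6, and Creb3l2, an ATF6 relative, was lower at -0.49 (adjusted p = 0.0191) and lost it under 4. The removal of YY1bKO replicate 2 ended the call of each of these 5. The removal of YY1bKO replicate 3 ended those of Ddit3, Ppp1r15a and Rtcb, that of YY1bKO replicate 1 or of control replicate 1 those of Rtcb and Creb3l2, and that of control replicate 3 those of Ddit3 and Trib3. Eif2ak3, which encodes PERK, and Atf4 were not called, at 0.24 (adjusted p = 0.161) and -0.04 (adjusted p = 0.844). Nor were Atf3 (0.36, adjusted p = 0.401), Chac1 (0.44, adjusted p = 0.47) and Ppp1r15b (0.61, adjusted p = 0.0817), which also belong to the PERK and ATF4 branch. Ddit3, Eif2ak3, Atf4, Atf3, Chac1 and Ppp1r15b were named after their values were seen.

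Calls of either sign stood among the folding enzymes outside the list. Of 18 other chaperones 1 was called higher (5.56%), Dnajc10, a reductase of the ER (0.62, limma adjusted p = 0.00575), and 2 lower (11.1%), the cargo receptor Lman1 (-0.68, adjusted p = 0.00856) and the fucosyltransferase Pofut2 (-0.58, adjusted p = 0.015). The median of that list was -0.08. Of 20 other disulphide and prolyl isomerases 2 were higher (10%) and 3 lower (15%), with a median of 0.11. Vkorc1, the vitamin K epoxide reductase, rose by 0.63 (adjusted p = 0.0121), and Ppib, a cyclophilin, by 0.40 (adjusted p = 0.02). Tmx2 (-0.67, adjusted p = 0.00947) and Ppic (-0.70, adjusted p = 0.0167) were lower.

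Degradation, glycosylation, targeting and vesicle genes each held more calls higher than lower, as did all genes, at 10.2% and 8.09%. Of 28 other degradation genes 4 were higher, or 14.3%, a share near that of all genes, and 0 lower (without adjustment, 10 and 0 at p under 0.05): Selenos, which recruits the p97 ATPase to Derlins, at 0.50 (limma adjusted p = 0.00548), Rhbdd1 at 0.39 (adjusted p = 0.0141), the ubiquitin-conjugating Ube2j2 at 0.38 (adjusted p = 0.0193) and Edem2 at 0.42 (adjusted p = 0.0225). Of 29 glycosylation genes 8 were higher (27.6%) and 2 lower (6.9%). Gfpt1, which commits glucose to the hexosamine route and is a known XBP1 target, was at 1.31 ± 0.10 or 2.48-fold (adjusted p = 0.00106), from a dim control level of 5.63 ± 0.10 (log2 intensity, SD, n = 3). In the mean over its probe sets the value was 0.64 (adjusted p = 0.00325). Krtcap2, a subunit of oligosaccharyltransferase, was at 0.95 (adjusted p = 0.00771), while Dpagt1, which starts the lipid-linked glycan, and Alg12, which adds a mannose to it, were lower at -0.65 (adjusted p = 0.00454) and -0.57 (adjusted p = 0.0078).

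Of 26 other targeting and translocation genes 7 were higher (26.9%) and 0 lower (without adjustment, 11 and 2 at p under 0.05), beside the 3 of 7 on the member list. The subunits Srp9 and Srp19 of the signal recognition particle were at 0.47 (limma adjusted p = 0.00854) and 0.74 (adjusted p = 0.0088), and Emc6 of the membrane insertase at 0.59 (adjusted p = 0.00642). Snd1, at 0.41 (adjusted p = 0.0127), encodes in mammals a tudor and nuclease domain protein and shares only its name with a yeast targeting factor. Of 41 genes of ER exit and return vesicles 11 were higher (26.8%) and 1 lower (2.44%). Among them the cargo adaptors Tmed3 and Tmed7 were at 0.59 (adjusted p = 0.012) and 0.39 (adjusted p = 0.0184), the coat GTPase gene Sar1a at 0.41 (adjusted p = 0.0124), and Ergic1, of the compartment between ER and Golgi, at -0.74 (adjusted p = 0.00267). Gfpt1, Krtcap2, Dpagt1, Selenos, Dnajc10, Lman1, Tmx2, Vkorc1, Emc6, Srp9, Srp19 and Ergic1 remained called under all alternatives in which they were measured. The other genes named from these lists lost the call under at least 1, with adjusted p of at most 0.163. Without control replicate 1 these were Pofut2, Ppib, Ppic, Edem2, Ube2j2 and Tmed7, and without control replicate 3 Ppib. Without YY1bKO replicate 1 they were Pofut2, Ppib, Ppic, Edem2, Ube2j2, Rhbdd1, Sar1a, Tmed3 and Tmed7. Without YY1bKO replicate 2 they were Ppib, Ppic, Edem2, Ube2j2, Rhbdd1, Snd1 and Sar1a, and without YY1bKO replicate 3 Pofut2, Ppib, Ppic, Edem2, Ube2j2, Snd1, Sar1a and Tmed7. In the mean over their probe sets Alg12, at -0.32 (adjusted p = 0.068), and Snd1, at 0.18 (adjusted p = 0.163), lost it, and Alg12 lost it under no other alternative.

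**Figure D5:**
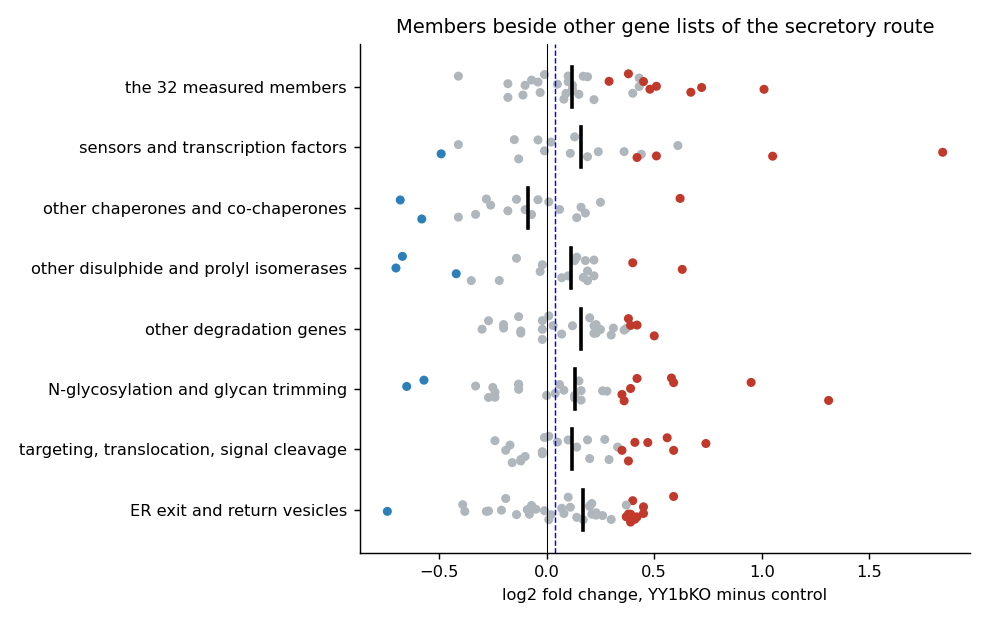
Log2 fold change, YY1bKO minus control, of each gene of the member list and of 7 further lists of the secretory route (red, called higher; blue, called lower; grey, not called; black bar, median of the list; dashed line, median of all genes tested). Red points outnumber blue ones in the members and in the sensor, degradation, glycosylation, translocation and vesicle lists.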

How the data were processed

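Total RNA of 6 brown adipose samples was labelled with biotin and hybridised to Affymetrix arrays, per the labels' protocols. The deposited values are 1 intensity per probe set and array on a linear scale, made with RMA per the submitters' processing notes. No RMA version was given in the sources used here. It brings all arrays to 1 common distribution, so a shift shared by most transcripts would not show, and it understates changes of dim probe sets. The files give no counts, so the number of arrays limits the precision.

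The deposited intensities were transformed to log2 with no pseudocount, since the design had assumed log2 values. Of 22690 probe sets 64 Affymetrix controls were removed, and of the 22626 left 20380 had 1 gene symbol in GEO's platform annotation, 691 several and 1555 none. The 20351 Entrez identifiers that matched the RefSeq gene table changed 0 symbols. Each gene was read from its probe set with the highest mean over 6 arrays, which gave 12393 genes. A probe set was called dim when its mean was at or below the median of all, a log2 intensity of 6.49. Groups were compared with limma 3.58.1 in R 4.3.3 (lmFit, eBayes, group as the sole term, two-sided, prior degrees of freedom 2.71, residual 4), with Benjamini-Hochberg adjustment over all genes or, in a separate fit, over all probe sets. SE is the moderated standard error. Each adjusted p in the text is from limma.

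The members, the lists of further genes and the marker lists were chosen with earlier results of these data known. All members are described, and from each further list at most the 4 called genes with the smallest p are named, unless stated. Promoter windows are RefSeq's on GRCm38.p6. The alternatives were quantile normalization, median centring, the mean over probe sets, removal of dim probe sets, eBayes with its trend and robust options, weights per array, a block for the replicate number, a pseudocount of 16, a muscle score (the mean log2 intensity of the 20 muscle markers on each array) as covariate and the removal of each array.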

Additional observations from a re-analysis of the deposited data

How the results depend on the processing

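Of the 8 member genes called higher, 2 (Derl1 and Sec61b) were called under all 15 alternatives and none changed sign, while Canx lost its call under 9, Hsp90b1 under 8, Sec61a1 under 7, Ssr2 under 5, Edem1 under 4 and Ero1a under 2. The count called higher among the 32 members was 5 with the mean over probe sets, against 9.86% of all genes. With the replicate number as a block it was 4, against 5.41%. When 1 array was left out it was 2 to 6. Without control replicates 1, 2 and 3 it was 4, 6 and 5, against 5.47%, 13.4% and 7.63% of all genes. Without YY1bKO replicates 1, 2 and 3 it was 3, 3 and 2, against 4.48%, 4.41% and 4.6%. It was 10 with the muscle score as covariate, against 14.4% of all genes. No member gene was called lower under any setting run, against 3.76% to 14.2% of all genes. For Sel1l this depends on the probe set read, since the one brighter in control tissue was called lower over all probe sets. The mean over its probe sets gave -0.17 (adjusted p = 0.193). Of the 76 member probe sets, 8 were called higher with the block (10.5%, against 4.9% of all probe sets), 22 with the covariate (28.9% against 13.1%) and 4 to 13 with 1 array left out (5.26% to 17.1% against 3.57% to 11.5%), and 6 were called lower with array weights (7.89% against 11.6%), 1 with the block (1.32% against 4.81%), 4 with the covariate (5.26% against 12.6%) and 0 to 5 with 1 array left out (up to 6.58%, against 3.09% to 10.9%). Among uncalled members the log2 fold change turned sign in 6: Sel1l (0.012 with quantile normalization, 0.028 with the covariate, -0.064 to 0.052 with 1 array left out), Manf (-0.021 with array weights, -0.075 to 0.21 with 1 array left out), Pdia3 (-0.0011 with array weights, -0.0087 to 0.18 with 1 array left out), Pdia6 (-0.0014 in the mean over probe sets), Ssr3 (0.011 with quantile normalization) and Derl2 (0.0088 with quantile normalization, 0.076 with the covariate, -0.15 to 0.036 with 1 array left out). The cause was not tested, except that settings without an array hold fewer samples.

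Over all genes the counts were 1267 higher and 1003 lower, 671 and 639 with the block, 678 and 541, 1661 and 1439, and 946 and 792 without control replicates 1, 2 and 3, 555 and 513, 547 and 466, and 570 and 492 without YY1bKO replicates 1, 2 and 3, and 1780 and 1755 with the covariate. The replicate numbers are shared between groups but nothing in the labels pairs the samples. Deviations from the group means of same-numbered samples correlated at -0.25, 0.11 and 0.26. With 3 arrays a group such deviations depend on each other, so these values cannot decide whether the samples were paired. With 3 arrays a group, and no detection calls, low probe sets such as that of Ern1 limit what can be seen.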
